A study of Mus musculus with 6 samples.

Results

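The mitochondrial DNA (mtDNA) maintenance and transcription factors described here are 10 nuclear genes: *Twnk*, *Ssbp1*, *Polg*, *Polg2*, *Tfam*, *Polrmt*, *Tfb2m*, *Tfb1m*, *Nrf1* and *Gabpa*. They were picked by symbol from the 55401 genes in the count tables, and all 10 were among the 16807 genes with enough counts to be tested. The RNA came from subcutaneous white adipose tissue (scWAT) of 8-week-old male mice in 2 groups of 3. The control group is WT in the sample labels and YT-FF in the study's methods, and is called YT-FF here. The methods do not spell out its genotype. Elsewhere the paper gives the name YT-FF to mice with floxed *Yap1* and *Wwtr1* (Taz) alleles that received a Cre virus. The controls are therefore read here as floxed mice without Cre. The group labelled YT-AKO had floxed *Yap1* and *Wwtr1* (Taz) alleles together with *Adipoq*-Cre, a driver of recombination in mature adipocytes that spares the other cells of the depot. The comparison asked how these genes differ in scWAT when YAP and TAZ are targeted in adipocytes.

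The mitochondrial genome is copied and read by a small set of proteins that are encoded in the nucleus. The helicase Twinkle opens the DNA, the single-stranded DNA binding protein SSBP1 coats the opened strand, and DNA polymerase gamma, made of a catalytic and an accessory subunit, copies it. TFAM packages the DNA and marks the promoters, TFB2M opens them, and the RNA polymerase POLRMT makes both the transcripts and the primers for replication. NRF1 and GABPA are nuclear transcription factors long known to bind the promoters of such genes. Brown and beige adipocytes are rich in mitochondria, which makes this machinery of interest in a white depot with thermogenic gene expression.

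Of the 10 genes, *Twnk* alone passed the test between the groups. Its level was 2.01-fold higher in the libraries labelled YT-AKO, and no library of one group reached the range of the other. *Ssbp1* and *Polrmt* were also higher in all 3 libraries labelled YT-AKO than in any control, by 1.53-fold and 1.33-fold, but their adjusted p missed 0.05. *Polg* and *Gabpa* were lower in all 3, at 0.691 and 0.773 of the control, and missed it as well. *Tfam*, *Tfb1m*, *Tfb2m*, *Polg2* and *Nrf1* had overlapping groups. With 3 libraries a group, an adjusted p that misses 0.05 does not show that a level did not differ.

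The libraries held between 17740987 and 21838493 counts. *Yap1* fell, with 1622, 1300 and 1295 counts in YT-FF and 649, 492 and 529 in the libraries labelled YT-AKO (log2 fold change -0.98, edgeR adjusted p = 0.0179). *Wwtr1* went the other way, from 1818, 1729 and 1918 counts to 3015, 2253 and 2716 (0.89, adjusted p = 0.022), which is against the label. By immunoblot, the paper reported a clear loss of both YAP and TAZ protein in scWAT of YT-AKO mice. The counts pool all exons of a gene, so the excised part was not looked at on its own, and the groups are named by their labels throughout. The adipocyte marker *Adipoq* lay between 1470 and 2400 CPM (counts scaled to a common library size with TMM factors) in all 6 libraries. YT-AKO replicate 2 stood apart from the others on the first principal component, which also separated the groups. Results that rest on this library are given without it as well. The libraries also differed by gene length. Spearman correlations of a gene's deviation from its mean level with its length were 0.314, 0.333 and 0.277 in YT-FF. In the libraries labelled YT-AKO they were -0.2, -0.367 and -0.214. Log2 fold change and length correlated at -0.376, and at -0.283 without YT-AKO replicate 2. Since this trend runs with the groups, effects of length and of group cannot be told apart.

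Most of the members hold a short motif near a transcription start. RefSeq promoter windows on GRCm38.p6, each running from 250 bases before to 50 bases after a transcription start, covered all 10 members with 12 windows. The heptamer CCGGAAG, which GABP and other ETS factors bind, was searched on both strands. It lay in 7 of the 12 windows, 1 each of *Tfam*, *Polrmt*, *Polg*, *Polg2*, *Twnk*, *Ssbp1* and *Gabpa*, whereas 8.86% of all 32851 windows and 15.6% of the 14991 windows of tested genes held it. The stretches below are shown because they carry this shared motif just upstream of a RefSeq start of the genes whose values follow. *Twnk* has RefSeq starts at 45005663 and 45006558 on chromosome 19, and both of its matches precede the second, inside the gene. The stretches of *Tfam*, *Ssbp1*, *Polg* and *Gabpa* also lie within the gene ranges given with their values, since the annotation begins those genes farther upstream than RefSeq, and those of *Polrmt* and *Polg2* lie outside. Each is written 5′ to 3′ on the strand of its gene, with the match in capitals (CTTCCGG is the same motif on the opposite strand), after its position on GRCm38 and the distance from the first capital to the start.
*Twnk*, chr19:45006437-45006466, plus strand, 110 bases before the start: ctaaccggtgaCTTCCGGttccggggttgt
*Twnk*, chr19:45006481-45006510, plus strand, 66 bases before the start: ggagagttttgCTTCCGGagtcaccgcgag
*Ssbp1*, chr6:40471410-40471439, plus strand, 47 bases before the start: ggctccgtgcgCCGGAAGcgagccgctggc
*Polg*, chr7:79466293-79466322, minus strand, 38 bases before the start: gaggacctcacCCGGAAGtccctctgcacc
*Polg2*, chr11:106779548-106779577, minus strand, 29 bases before the start: cgggtgacgctCTTCCGGgggcgtggtcta
*Tfam*, chr10:71238073-71238102, minus strand, 47 bases before the start: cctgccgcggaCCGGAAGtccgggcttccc
*Polrmt*, chr10:79746606-79746635, minus strand, 43 bases before the start: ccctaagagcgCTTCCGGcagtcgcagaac
*Gabpa*, chr16:84835020-84835049, plus strand, 93 bases before the start: gagggtaagtgCTTCCGGgtccctcagcta

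The genes that hold this motif did not move one way: *Twnk* rose, *Ssbp1*, *Polrmt* and *Tfam* had positive and *Polg*, *Polg2* and *Gabpa* negative log2 fold changes, none of these 6 past the test. Over all tested genes, the median log2 fold change was 0.10 with the motif and -0.04 without it. Other motifs were each in 0 or 1 of the members' 12 windows, too few to set apart from the shares given here. The consensus palindrome of NRF1 was in 0 of the 12, in 0.971% of all windows and in 1.82% of those of tested genes. With its sixth base left free, a form that takes in every match of the first, it was in 1 window, that of *Polrmt*. Of all windows 4.6% held that form, and of those of tested genes 8.69%. The motif GGAATG, bound by the TEAD partners of YAP and TAZ, was in the window of *Tfb1m* alone. It was in 14.7% of all windows and 12.5% of those of tested genes. The ERR motif AAGGTCA was in 1 of the *Twnk* windows (4.72% of all, 3.52% of those of tested genes).

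The replication helicase gave the clearest difference. *Twnk* (ENSMUSG00000025209, chr19:45005663-45012762, plus strand) had 20.0, 20.2 and 17.8 CPM in YT-FF and 33.8, 53.6 and 29.4 CPM in the libraries labelled YT-AKO. The lowest of the latter was above the highest control, and YT-AKO replicate 2 was the highest of all. The mean went from 19.3 ± 1.31 to 38.9 ± 12.9 CPM (SD, n = 3), a log2 fold change of 1.01 (SE 0.241, 95% interval 0.45 to 1.57, edgeR quasi-likelihood test, Benjamini-Hochberg adjusted p = 0.0292). The call was lost when any 1 control library was left out (adjusted p of 0.123, 0.125 and 0.0828 without replicates 1, 2 and 3). Without YT-AKO replicate 2 the log2 fold change was 0.71 (adjusted p = 0.00698), and it was 1.12 without YT-AKO replicate 1 (adjusted p = 0.0355). On the scale of library totals alone it was 0.65 with an adjusted p of 0.0548.

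*Twnk* shares 507 of its 4013 exonic bases (12.6%) with the neighbouring *Mrpl43*, which encodes a mitochondrial ribosomal protein. *Mrpl43* itself rose, from 10.9, 9.71 and 12.8 to 19.7, 53.0 and 22.8 CPM (log2 fold change 1.52, SE 0.379, edgeR adjusted p = 0.0322). Fragments that overlapped exons of both genes were left out of the counts, and since counting did not use strand, reads of one gene that run past the annotated overlap into the other cannot be told apart from its own.

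*Ssbp1* (ENSMUSG00000029911, chr6:40471352-40484700, plus strand), whose product protects the single strand that Twinkle opens, had 27.6, 29.0 and 28.9 CPM in YT-FF and 38.6, 58.0 and 34.4 CPM in the libraries labelled YT-AKO. The groups did not overlap, and YT-AKO replicate 2 was again the highest. The log2 fold change was 0.62 (SE 0.214, 95% interval 0.12 to 1.11, edgeR adjusted p = 0.0717). It was 0.36 without YT-AKO replicate 2 and then passed the test (adjusted p = 0.0471), and it also passed when a smooth offset for gene length was fitted (0.92, adjusted p = 0.0491). With library totals it was 0.26 (adjusted p = 0.294).

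The subunits of DNA polymerase gamma had negative log2 fold changes, neither past the test. *Polg* (ENSMUSG00000039176, chr7:79446231-79466362, minus strand), the catalytic subunit, had 101, 90.3 and 88.2 CPM in YT-FF and 77.2, 39.7 and 76.1 CPM in the libraries labelled YT-AKO. All 3 were under the lowest control, but YT-AKO replicate 2 was far under the other two, and the log2 fold change of -0.53 (SE 0.257, 95% interval -1.13 to 0.06, edgeR adjusted p = 0.157) was -0.28 without it. With the length offset and without that library, the value was 0.01. *Polg* shares 8.57% of its exonic bases with *Fanci*. *Polg2* (ENSMUSG00000020718, chr11:106768253-106779537, minus strand), the accessory subunit that keeps the polymerase on its template, had 13.2, 12.5 and 11 against 10.3, 12.9 and 11.6 CPM. These groups overlapped, and the log2 fold change was -0.08 (95% interval -0.52 to 0.37, edgeR adjusted p = 0.786).

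**Figure D1:**
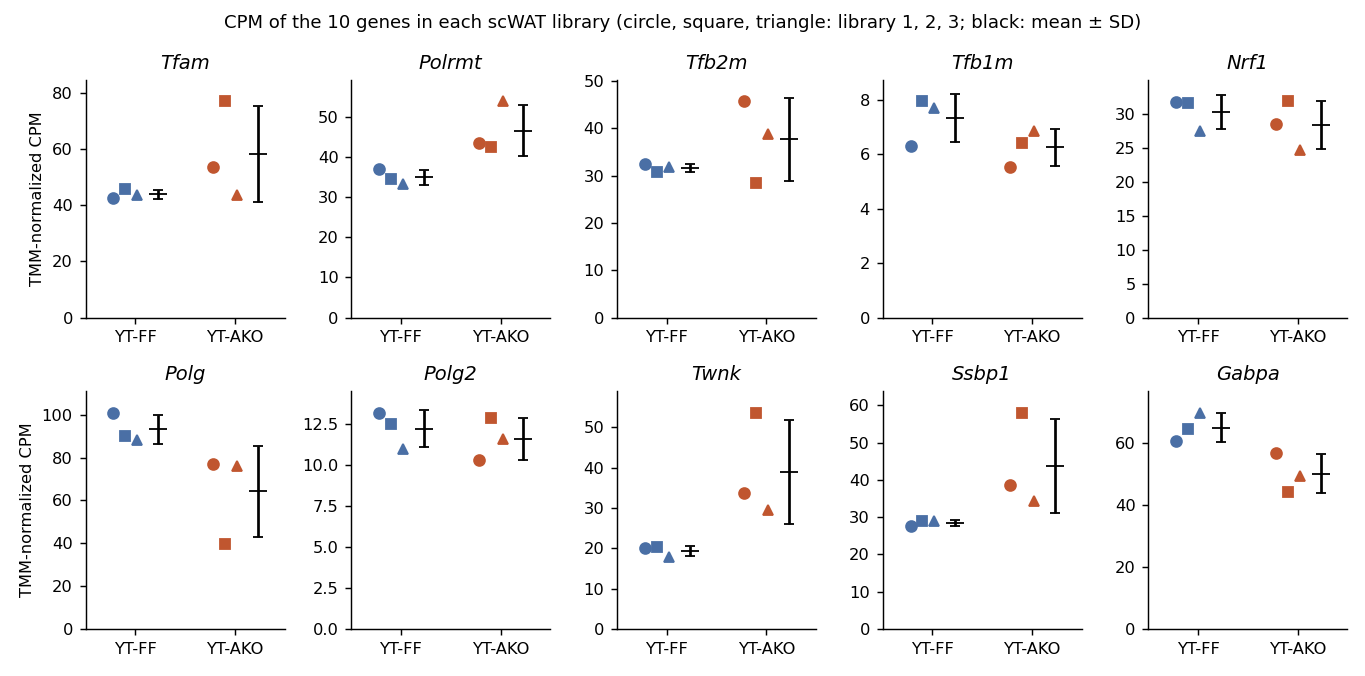
CPM of the 10 genes in each library (points; YT-FF and libraries labelled YT-AKO side by side, n = 3 each), with the mean and SD of each group. The *Twnk* points lie between 17.8 and 20.2 CPM in YT-FF and between 29.4 and 53.6 CPM in the libraries labelled YT-AKO, while the *Tfam*, *Tfb1m*, *Tfb2m*, *Polg2* and *Nrf1* groups overlap.

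Of the factors that package and transcribe mtDNA, none passed the test. *Tfam* (ENSMUSG00000003923, chr10:71225464-71238280, minus strand), the packaging protein, had 42.6, 45.8 and 43.7 CPM in YT-FF and 53.8, 77.1 and 43.7 CPM in the libraries labelled YT-AKO. The controls lay close together, whereas YT-AKO replicate 2 was high and replicate 3 lay within the control range. The log2 fold change was 0.40 (SE 0.218, 95% interval -0.10 to 0.91, edgeR adjusted p = 0.199), 0.15 without YT-AKO replicate 2 and 0.61 with an offset for GC content (adjusted p = 0.0947). The interval of *Tfam* includes both no change and a 1.88-fold rise.

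*Polrmt* (ENSMUSG00000020329, chr10:79736123-79746581, minus strand), the RNA polymerase, had 37.1, 34.5 and 33.3 against 43.5, 42.4 and 53.9 CPM. The groups did not overlap, and here YT-AKO replicate 3 was the highest and replicate 2 the lowest of its group. The log2 fold change was 0.41 (SE 0.157, 95% interval 0.05 to 0.78, edgeR adjusted p = 0.0894), and 0.48 with an adjusted p of 0.0271 without YT-AKO replicate 2. It was 0.02 with the GC offset (adjusted p = 0.924), 0.14 with offsets for GC content and length (adjusted p = 0.512) and 0.09 with library totals.

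The remaining pair in this set are relatives of bacterial ribosomal RNA methyltransferases with different tasks. *Tfb2m* (ENSMUSG00000026492, chr1:179528055-179546267, minus strand), which opens mitochondrial promoters, had 32.4, 30.8 and 31.8 against 45.7, 28.4 and 38.9 CPM. YT-AKO replicate 2 lay under all controls and the other two above them, for a log2 fold change of 0.25 (SE 0.195, edgeR adjusted p = 0.358) that was 0.42 without that library (adjusted p = 0.03). With the length offset it was 0.03, and 0.23 when that library was also left out (adjusted p = 0.17). *Tfb1m* (ENSMUSG00000036983, chr17:3519256-3557781, minus strand), which methylates the RNA of the small mitochondrial ribosomal subunit, had 6.31, 7.95 and 7.72 against 5.52, 6.43 and 6.85 CPM. It had the lowest CPM of the 10 genes, its groups overlapped, and its log2 fold change was -0.23 (SE 0.223, edgeR adjusted p = 0.471).

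Both nuclear regulators had negative log2 fold changes, neither past the test. *Gabpa* (ENSMUSG00000008976, chr16:84834925-84863779, plus strand), the DNA-binding subunit of GABP, had 60.6, 64.7 and 69.9 CPM in YT-FF and 57.0, 44.3 and 49.4 CPM in the libraries labelled YT-AKO. The groups did not overlap, and the log2 fold change was -0.37 (SE 0.157, 95% interval -0.74 to -0.01, edgeR adjusted p = 0.116). Scaled to library totals alone, it was -0.69 and passed (adjusted p = 0.0449), on a scale where the median of all tested genes was -0.34. It was -0.11 with the GC offset (adjusted p = 0.578) and -0.09 with both offsets (adjusted p = 0.633). *Gabpa* shares 6.98% of its exonic bases with *Atp5j*, a gene on the other strand. *Atp5j* rose from 93.6, 84.7 and 117 to 177, 331 and 180 CPM (log2 fold change 1.22, SE 0.281, edgeR adjusted p = 0.027). *Nrf1* (ENSMUSG00000058440, chr6:30047988-30153458, plus strand) had 31.7, 31.6 and 27.4 against 28.4, 31.8 and 24.7 CPM. The range of the libraries labelled YT-AKO enclosed that of the controls, with a log2 fold change of -0.10 (SE 0.163, 95% interval -0.47 to 0.28, edgeR adjusted p = 0.685).

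Counted together, 1 of the 10 genes was called higher at an adjusted p under 0.05 and 0 were called lower by edgeR, where 12.6% of all 16807 tested genes were called higher and 9.01% lower. DESeq2 and limma-voom also called 1 of the 10 higher and 0 lower, against 15% and 11.7% of all genes with DESeq2 and 11.8% and 9.8% with limma-voom. At an adjusted p under 0.01 with a log2 fold change beyond 1, edgeR called 0 of the 10 (0.0892% of all genes higher, 0.0357% lower), limma-voom 0 (0.131% and 0.0357%) and DESeq2 1, *Twnk* (7.07% and 3.56%). At an unadjusted p under 0.05, edgeR had 3 of the 10 higher and 1 lower, and 40.8% of all tested genes passed in either direction. In CPM, 3 of the 10 had all libraries labelled YT-AKO above all controls and 2 had them below, where 25.7% of tested genes were above and 25.8% below. These shares are near those of all genes. The median log2 fold change of the 10 was 0.09, against -0.02 over all tested genes, 5 values were positive and 5 negative, and their summed level was 360 to 372 CPM in YT-FF and 369 to 395 CPM in the libraries labelled YT-AKO.

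**Figure D2:**
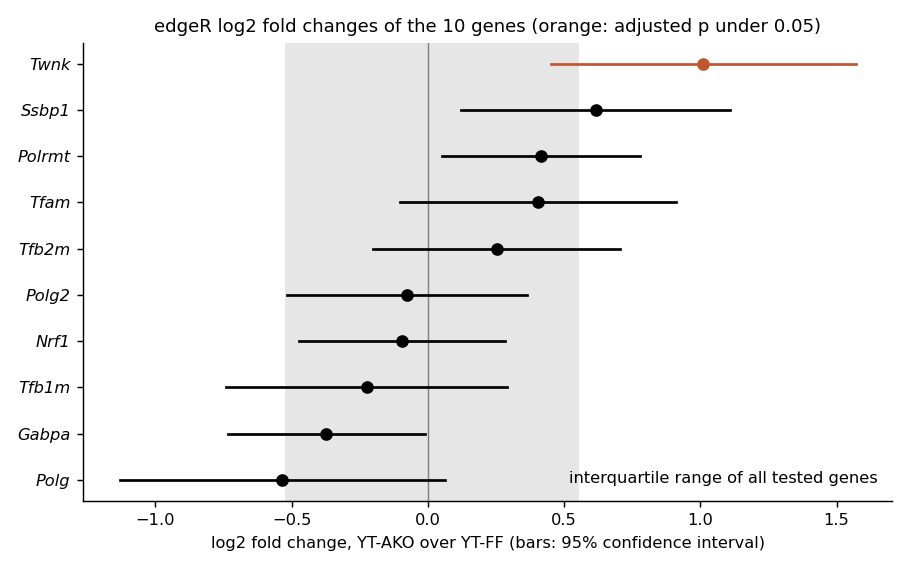
Log2 fold change (libraries labelled YT-AKO over YT-FF) of each of the 10 genes with its 95% interval from edgeR; the grey band is the interquartile range of all tested genes, -0.52 to 0.55. The value of *Twnk*, 1.01, and that of *Ssbp1*, 0.62, lie above the band, and that of *Polg*, -0.53, lies at its lower edge.

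The zero of these values depends on the scaling. The median log2 fold change of all tested genes was -0.02 with TMM, -0.34 with library totals and -0.66 in TPM (counts per base of summed exons, scaled to a common total). Relative to that median, each of the 10 genes kept its sign on all 3 scales: *Twnk* was at 1.03, 0.99 and 0.94, *Ssbp1* at 0.64, 0.60 and 0.56, *Tfam* at 0.42, 0.39 and 0.35, and *Polg* at -0.51, -0.48 and -0.45. For a fold change, these scales differ only by a factor per library, so this agreement was largely fixed in advance and is no check of the signs. Offsets for length and GC content, which act gene by gene, did change some signs, as given below. In TPM itself *Twnk* was the only member higher in every library labelled YT-AKO, with 19.1, 19.8 and 16.0 against 23.5, 23.4 and 19.9, and the lowest of the latter was just above the highest control. *Tfam*, *Tfb1m*, *Polg*, *Polg2*, *Nrf1* and *Gabpa* were lower in TPM without overlap, as were 54.5% of tested genes, while 7.52% were higher. *Tfam* had 36.9, 40.7 and 35.5 TPM in YT-FF and 33.8, 30.5 and 26.8 in the libraries labelled YT-AKO.

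**Figure D3:**
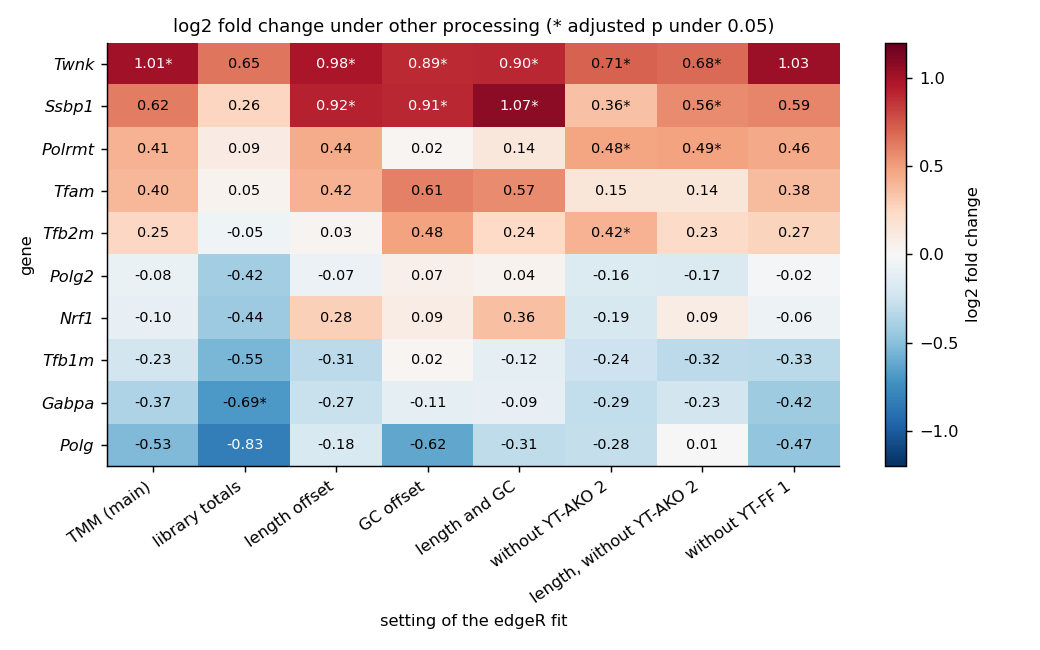
Log2 fold change of each of the 10 genes under the main TMM scaling and 7 other settings, with calls at an adjusted p under 0.05 marked. *Twnk* is positive in every column shown and loses its call with library totals and without YT-FF replicate 1, whereas *Nrf1* changes sign between columns and *Polg* is at 0.01 with the length offset and without YT-AKO replicate 2.

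Ratios within a library do not depend on the scaling between libraries, though they do depend on effects of gene length. The ratio of *Twnk* to *Ssbp1*, in counts per kilobase of exon, was 1.51, 1.45 and 1.28 in YT-FF and 1.82, 1.93 and 1.78 in the libraries labelled YT-AKO. The groups did not overlap, and the ratio was 1.31-fold higher in the latter (exact two-sided permutation p = 0.1, the smallest that 3 against 3 allows; Benjamini-Hochberg adjusted over 5 ratios, 0.333). The ratio was above all controls in each library of that group, YT-AKO replicate 2 included. With the length offset, however, the log2 difference in this ratio went from 0.39 to 0.07 (exact permutation p = 0.7). The ratio of *Polg* to *Polg2* was 3.09, 2.92 and 3.26 against 3.03, 1.25 and 2.66, so that the catalytic subunit was low relative to its partner mainly in YT-AKO replicate 2 (exact p = 0.2). The ratios of *Tfb2m* to *Tfb1m*, *Polrmt* to *Tfam* and *Gabpa* to *Nrf1* had overlapping groups, with exact permutation p of 0.2, 0.8 and 0.4. With the length offset, the log2 difference of *Gabpa* to *Nrf1* went from -0.28 to -0.53 and that of *Polg* to *Polg2* from -0.52 to -0.14 (exact permutation p of 0.1 and 0.9).

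**Figure D4:**
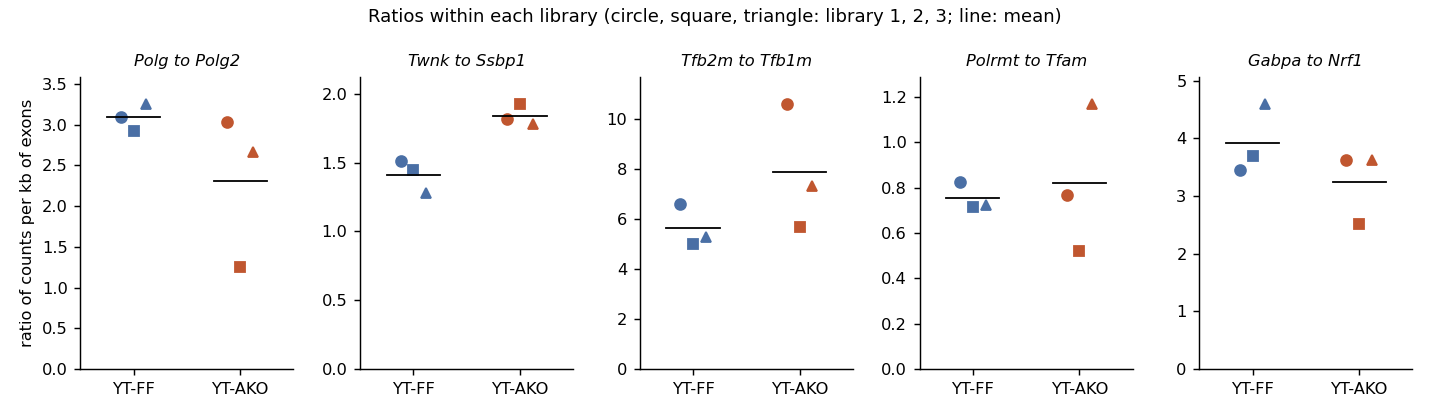
Ratios of counts per kilobase of exon for 5 pairs of the genes in each library (points, by group, n = 3 each). The ratio of *Twnk* to *Ssbp1* lies between 1.28 and 1.51 in YT-FF and between 1.78 and 1.93 in the libraries labelled YT-AKO, and the groups of the other 4 pairs overlap.

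Per length of transcript, taken as the mean of a gene's protein-coding transcripts, *Tfam* had the highest level of the 10 in YT-FF, at 22.6 ± 0.838 CPM per kilobase (SD, n = 3). It was followed by *Gabpa* at 18.1 ± 1.3, *Ssbp1* at 15 ± 0.418, *Nrf1* at 13.8 ± 1.11 and *Tfb2m* at 12.9 ± 0.319. The range of mean ± SD of *Nrf1* overlapped those of its neighbours *Ssbp1* and *Tfb2m*, and differences between these levels were not tested. *Polg*, *Polrmt* and *Polg2* came next, *Twnk* took the ninth place at 6.8 ± 0.461 and *Tfb1m* lowest at 5.23 ± 0.636. In the libraries labelled YT-AKO, *Twnk* took the fifth place, at 13.7 ± 4.54 CPM per kilobase, between *Gabpa* at 14 ± 1.78 and *Nrf1* at 13.0 ± 1.63, which did not differ from it beyond their spread. The order depends on the length used: with summed exons, which count every exon of every isoform, *Gabpa* at 11.4 and *Tfb2m* at 11.3 CPM per kilobase were above *Tfam* at 9.92, and *Ssbp1* dropped from the third to the seventh place in YT-FF.

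The transcripts that this machinery makes were not measured, since all 37 genes of the mitochondrial chromosome were listed at 0 counts in every library. The rest of the pathway was read from 4 lists of nuclear genes. Of 15 tested genes for other steps of mtDNA replication, repair and nucleoid structure, 5 rose and 0 fell by edgeR, with a median log2 fold change of 0.40. Over all tested genes, 12.6% rose and 9.01% fell, with a median of -0.02. DESeq2 had 5 higher and 1 lower. *Top1mt*, the mitochondrial topoisomerase that relieves supercoils, had 12.2, 11.1 and 13.6 CPM in YT-FF and 28.3, 56.1 and 29.4 CPM in the libraries labelled YT-AKO (log2 fold change 1.62, SE 0.29, edgeR adjusted p = 0.0185). *Endog*, a mitochondrial nuclease, rose from 14.2, 15.8 and 17.0 to 37.4, 52.7 and 37.2 CPM (1.44, edgeR adjusted p = 0.0166). All libraries of the 2 groups were apart for both genes. *Lonp1*, *Mgme1* and *Atad3a*, named after their values were seen, also rose, by 0.92, 0.80 and 0.75 on the log2 scale, and encode a protease of the matrix that degrades TFAM, a nuclease of mtDNA replication and a nucleoid-associated membrane protein. The lowest values were those of *Fen1* at -0.83 and *Lig3* at -0.68 (edgeR adjusted p of 0.388 and 0.0611), a flap nuclease and the mitochondrial DNA ligase. The value of *Fen1* rests on few reads, 33, 14 and 20 counts in YT-FF and 7, 3 and 19 in the libraries labelled YT-AKO (SE 0.69).

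Of 11 tested genes that supply nucleotides for mtDNA, 3 rose and 2 fell, beside 12.6% and 9.01% of all tested genes, with a median of 0.24 beside -0.02. The subunits of succinyl-CoA ligase *Sucla2* and *Suclg1*, which also belong to the citric acid cycle, rose by 1.27 and 1.25 on the log2 scale (edgeR adjusted p of 0.0177 and 0.0262). *Sucla2* had 152, 156 and 222 CPM in YT-FF and 370, 486 and 424 CPM in the libraries labelled YT-AKO. The third that rose was the pyrimidine nucleotide carrier *Slc25a33* at 1.14, named after its value was seen. *Rrm2b*, the ribonucleotide reductase subunit of resting cells, fell from 36.6, 36.8 and 41.0 to 22.7, 15.5 and 24.7 CPM (-0.86, edgeR adjusted p = 0.0283), and *Abat* fell by 1.68 on the log2 scale (edgeR adjusted p = 0.0181). The list thus held genes moving both ways.

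Of 23 tested genes for other steps of mitochondrial transcription and RNA processing, 6 rose and 0 fell by edgeR, beside 12.6% and 9.01% of all tested genes, and 8 rose and 0 fell by DESeq2, beside 15% and 11.7%. The median was 0.42, beside -0.02. In 13 of the 23, every library labelled YT-AKO was above every control, as in 25.7% of all tested genes. *Hsd17b10*, a subunit of mitochondrial RNase P that is also a fatty acid oxidation enzyme, had 55.2, 53.5 and 76.7 CPM in YT-FF and 124, 256 and 126 CPM in the libraries labelled YT-AKO (1.45, edgeR adjusted p = 0.0249). *Slirp*, at 1.25, did not pass (SE 0.539, edgeR adjusted p = 0.122). It had few reads, 40, 16 and 23 counts in YT-FF and 27, 82 and 37 in the libraries labelled YT-AKO. The lowest values were -0.30 for *Fastkd3* and -0.23 for *Pnpt1*. The others that rose were *Rexo2*, *Lrpprc*, *Tbrg4*, *Supv3l1* and *Fastk*, named after their values were seen.

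The partners and coactivators of NRF1 and GABPA, 8 tested genes, had a median of -0.20 beside -0.02 over all tested genes, with 1 that rose and 2 that fell beside 12.6% and 9.01%. *Esrra*, a nuclear receptor that works with PGC-1 coactivators, rose from 72.2, 65.9 and 69.9 to 107, 89.3 and 122 CPM (0.61, edgeR adjusted p = 0.038). *Ppargc1b*, a PGC-1 coactivator, was next highest at 0.39 and did not pass (edgeR adjusted p = 0.351). *Gabpb2*, a GABP beta subunit, fell from 109, 112 and 85.6 to 51.5, 35.7 and 44.0 CPM (-1.22, edgeR adjusted p = 0.0177), and *Hcfc1*, a chromatin cofactor, fell by 0.98 on the log2 scale (edgeR adjusted p = 0.0233). The other GABP beta subunit *Gabpb1*, named after its value was seen, was at -0.26 (edgeR adjusted p = 0.232). *Ppargc1a*, the coactivator of mitochondrial biogenesis, named after its value was seen, had 10, 9.98 and 7.67 against 11.7, 5.19 and 11.2 CPM, with overlapping groups (0.02, SE 0.326, edgeR adjusted p = 0.965). Leaving out YT-FF replicate 1 or 2 ended every call in all 4 lists by edgeR, and calls over all genes then numbered 0 and 2. Without YT-AKO replicate 2, edgeR called 5 replication genes higher and 2 lower, and 4 and 3 of nucleotide supply. It then called 10 and 0 of transcription and 1 and 2 of the partners. Over all 17350 genes tested in that setting, 2925 were called higher and 2424 lower.

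**Figure D5:**
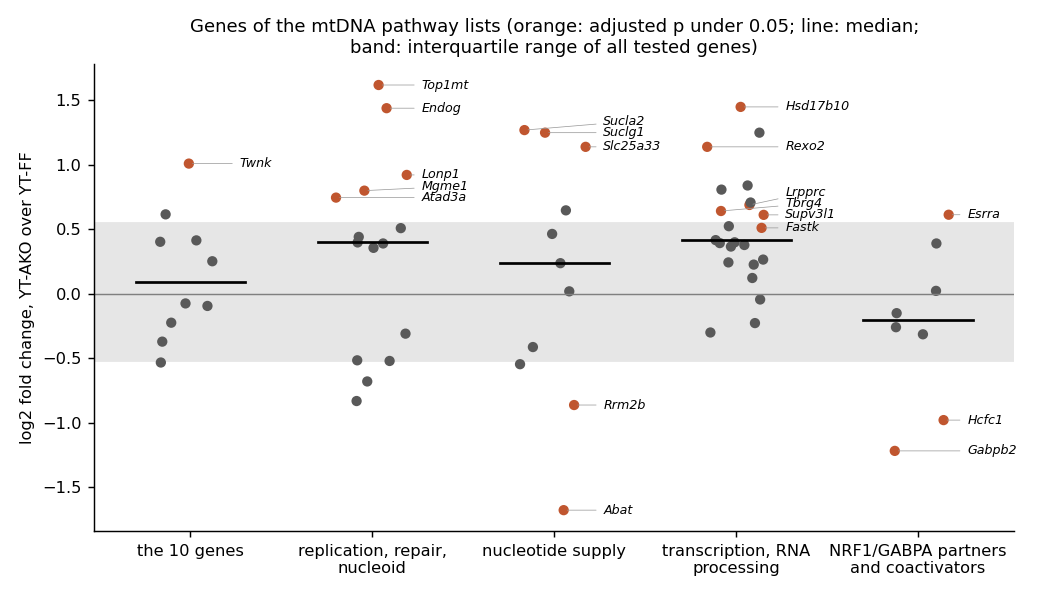
Log2 fold change (libraries labelled YT-AKO over YT-FF) of each tested gene in the 10 members and the 4 other lists of the mtDNA pathway, with the median of each list as a line and called genes in orange. The medians are 0.09 for the members, 0.40, 0.24 and 0.42 for replication, nucleotide supply and transcription, and -0.20 for the partners of NRF1 and GABPA.

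Summed levels of the markers of some cell types differed between the groups without overlap. The summed level of 7 adipocyte markers was 10100 to 15100 CPM in YT-FF and 17100 to 29300 CPM in the libraries labelled YT-AKO, with replicate 2 highest. *Fabp4* made up much of it, with a mean of 5210 against 13200 CPM, and 2 of the 7 were called, *Fabp4* and *Lipe*, while the groups of the other 5 overlapped. That of 6 beige and brown adipocyte markers was 153 to 226 against 1640 to 3610 CPM, and 6 of 6 were called higher, *Ucp1* going from 6.78, 3.69 and 9.84 to 144, 395 and 243 CPM. Of 4 brown depot markers, *Zic1* was at 0 in every library, and 0 of the 3 tested were called. *Eva1a* was higher in every library labelled YT-AKO, with 1.24, 1.89 and 2.01 against 4.83, 3.01 and 3.13 CPM (1.09, edgeR adjusted p = 0.0609). The groups of *Lhx8* and *Ebf2* overlapped (-0.27 and 0.08). Skeletal muscle markers summed to 406, 112 and 160 CPM in YT-FF and 2950, 438 and 208 CPM in the libraries labelled YT-AKO. Of these 6 markers 1 was called, *Acta1*, with 131, 41.1 and 81.8 against 1110, 312 and 198 CPM (2.67, edgeR adjusted p = 0.036). It was also the only one with groups apart. Macrophage markers summed to 981 to 1170 against 1320 to 1660 CPM and endothelial markers to 599 to 610 against 452 to 574 CPM, also without overlap, with 0 of 5 and 1 of 5 called. The sums of muscle, B cell (852 to 988 against 518 to 869 CPM), T cell and fibroblast markers overlapped. The part of these cell types in the values of the 10 genes was not tested, and in RNA from whole tissue a change in the number of cells of a type and a change in RNA per cell cannot be told apart.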

How the data were processed

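RNA-seq of scWAT from 3 YT-FF mice and 3 mice labelled YT-AKO was used, grouped by the titles in the sample labels. The methods give 3 mice per group. Total RNA libraries were mapped by the authors to mm10 (GRCm38) with HISAT2 and counted with featureCounts 2.0.1 on the exons of GENCODE vM25, without strand and without fragments that map to several places or overlap several genes. The deposited values are raw counts per gene. Symbols and coordinates were matched by identifier for 55141 of 55401 genes.

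Counts were tested in R 4.3.3 with edgeR 4.0.16: TMM, filterByExpr (minimum count 10, minimum total 15), quasi-likelihood test and Benjamini-Hochberg adjustment over 16807 genes. The biological coefficient of variation was 0.288. Calls were made at an adjusted p under 0.05. CPM use TMM factors. TPM and ratios use summed exon lengths. DESeq2 1.42.0 and limma-voom 3.58.1, other scalings and filters, smooth offsets for gene length and GC content, and leaving out each library were alternatives. The tests were checked on simulated counts. Ratios were compared by exact permutation tests.

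The 10 genes and the lists were chosen with earlier results of these data known. All 10 are named, together with the 2 highest and 2 lowest log2 fold changes of each other list, the targeted genes, *Adipoq* and *Ucp1*. Also named are the genes that overlap *Twnk*, *Polg* and *Gabpa*, the adipocyte and muscle markers that were called and the brown depot markers. *Polg2* and *Tfb1m* share 3.03% and 3.93% of their exonic bases with genes not named here. Others are said to have been named after their values were seen. Promoter windows and positions of motifs are from RefSeq on GRCm38.p6. Protein sequences were not used here.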

Additional observations from a re-analysis of the deposited data

How the results depend on the processing

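Beside TMM with all 6 libraries, 20 settings were run. *Twnk* had a positive log2 fold change in all of them. The 10 genes had 1 call higher with TMM, 0 with library totals, 2 with an offset for length, for GC content or for both, and 3 with the length offset without YT-AKO replicate 2. Leaving out 1 library gave 0 to 4 calls higher, 0 without any of the YT-FF libraries and 4 without YT-AKO replicate 2. Calls lower were 0 with TMM and 1, *Gabpa*, with library totals. Over all genes, 2121 were called higher and 1515 lower, against 1137 and 2828 with library totals, 895 lower with the length offset, 1413 and 787 with both offsets, and 0 to 2925 higher and 0 to 2424 lower when 1 library was left out. The replicate numbers did not pair the libraries (correlations of same-numbered deviations 0.126, -0.118 and -0.0893). With the replicate block 24 genes were called higher, 9 lower and 0 of the 10, and with the block and length offset 34, 15 and 0.

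Signs changed for 5 of the 10 genes and 1 ratio. *Nrf1* was at 0.282 with the length offset, 0.262 with the replicate block and length offset, 0.0907 with the GC offset, 0.363 with both offsets, 0.0879 with the length offset without YT-AKO replicate 2, and from -0.19 to 0.00396 without 1 library. *Polg2* was at 0.065 with the GC offset, 0.0436 with both offsets and from -0.161 to 0.0114 without 1 library. *Tfb1m* was at 0.0199 with the GC offset, *Tfb2m* at -0.0523 with library totals and *Polg* at 0.00737 with the length offset without YT-AKO replicate 2. The log2 ratio of *Polrmt* to *Tfam* ran from -0.252 to 0.331 without 1 library. List medians moved to 0.0813 (replication), -0.109 (nucleotide supply), 0.08 (transcription) and -0.527 (partners) with library totals. Transcription was at 0.595 with the GC offset, and nucleotide supply at -0.0102 with the length offset without YT-AKO replicate 2. Partners were at -0.00367 with the length offset, -0.00719 with the replicate block and length offset, -0.0218 with the length offset without YT-AKO replicate 2 and 0.0263 with both offsets. Without 1 library, replication ran from 0.341 to 0.568 and nucleotide supply from 0.0645 to 0.349. The cause of these differences was not tested.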
